A study of Homo sapiens with 4 samples.

Results

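Integrins are the receptors by which epithelial cells hold on to the extracellular matrix. The 10 transcripts described here encode integrin subunits and were chosen by gene symbol, out of 26255 gene symbols measured in the series. They are the alpha subunit genes ITGA2, ITGA3, ITGA5, ITGA6 and ITGAV and the beta subunit genes ITGB1, ITGB4, ITGB5, ITGB6 and ITGB8. The cells studied were of HCT116, an established colorectal cancer cell line of human origin, with a knockout of C14orf159 (KO, 2 libraries), a gene for a protein of the mitochondrial matrix that is now named DGLUCY. The control cells were HCT116 cells carrying an empty vector per the labels (EV control, 2 libraries), whereas the file headers call the control columns AAVS1, the name of a safe-harbour locus. Poly(A)-selected, stranded RNA libraries were sequenced, and the deposited values are FPKM, that is, fragments scaled to transcript length in kilobases and to library depth. The labels do not say whether the KO libraries came from 1 clone, from different clones or from a pool, nor whether replicates were separate cultures, so the p-values reflect how far these particular libraries lie apart, and that may be partly technical.

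An integrin is a pair of 1 alpha and 1 beta subunit, and the pair decides which matrix protein is bound. ITGB1 is the common partner and joins ITGA2 to bind collagen, ITGA3 or ITGA6 to bind laminin, and ITGA5 to bind fibronectin. ITGB4 pairs with ITGA6 alone, in the laminin receptor of hemidesmosomes that is anchored to keratin filaments. ITGAV pairs with ITGB1, ITGB5, ITGB6 or ITGB8; these receptors recognise the RGD motif of matrix proteins such as vitronectin, and those with ITGB6 or ITGB8 release TGF-beta from its latent complex. The series set out to explain migration, invasion and spheroid growth, all of which rest on contact with matrix.

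The libraries were checked first. C14orf159 stood at 2.52 and 10.8 FPKM in KO replicates 1 and 2, against 16.2 and 16.4 FPKM in the EV controls, so that the KO libraries kept 15.5% and 66.2% of the EV control mean. The KO replicates differed from each other more than the EV controls did: the robust SD of log2 ratios, over 6789 genes averaging at least 10 FPKM, was 0.228 between the KO replicates and 0.0888 between the EV controls. Depth is known only roughly, at an estimated 12.5 to 13.4 M fragments per library. It was judged by what 1 fragment is worth in genes that have a single transcript. The estimate is a median within a chosen window (0.06 to 0.1 for FPKM times length in kilobases), and that window bounds it. Fragment counts derived from it carry the same limit. Of 10 colon epithelial markers 7 passed the minimum level, and EPCAM stood at 284 and 314 FPKM in KO and at 237 and 236 FPKM in EV control cells, while KRT20 stood at 1.23 and 1.15 FPKM in KO and at 1.80 and 1.63 FPKM in EV control cells. KRT8, KRT18 and CDX2 had KO replicate 1 below and KO replicate 2 above both controls. VIL1 was listed at 0 in both KO libraries and in EV control replicate 1, and CDX1 in every library. CD68 and LYZ, on the leukocyte list, reached 2.87 and 1.31 FPKM at most, and the 7 markers of that list summed to 3.22 and 3.83 FPKM in KO and 4.21 and 3.29 FPKM in EV control cells. PTPRC and CD3E of leukocytes and DCN, LUM and FAP of fibroblasts were listed at 0 in every library, and the 6 endothelial markers summed to 0.255 to 0.445 FPKM. The fibroblast markers summed to 13.1 and 12.6 FPKM in KO and 9.11 and 10.01 FPKM in EV control cells, nearly all of it from COL1A1 and ACTA2, and their part in the results was not tested.

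The promoters of the members are shown first, because the KO libraries lay on opposite sides of the EV controls for 6 of the 10 members. RefSeq promoters on build GRCh38.p14 were matched for 8 members, and the 250 bases before the first-listed transcription start are printed 5′ to 3′ on the gene's strand for the 5 members of that kind that have one, with ITGB5, which was higher in both KO libraries, for comparison. Capitals mark matches on either strand to the GC box GGGCGG, the TEAD motif GGAATG and the TATA box TATAAA. The windows are chr5:52989102-52989351 (plus strand) for ITGA2, chr2:172427086-172427335 (plus) for ITGA6, chr2:186589806-186590055 (plus) for ITGAV, chr10:32958231-32958480 (minus) for ITGB1, chr7:20330650-20330899 (plus) for ITGB8 and chr3:124901419-124901668 (minus) for ITGB5.
ITGA2: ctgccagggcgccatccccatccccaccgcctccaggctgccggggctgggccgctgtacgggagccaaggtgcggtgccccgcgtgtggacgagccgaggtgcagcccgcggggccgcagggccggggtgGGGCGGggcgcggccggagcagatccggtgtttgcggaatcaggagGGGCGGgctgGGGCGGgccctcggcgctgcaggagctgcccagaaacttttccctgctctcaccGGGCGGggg
ITGA6: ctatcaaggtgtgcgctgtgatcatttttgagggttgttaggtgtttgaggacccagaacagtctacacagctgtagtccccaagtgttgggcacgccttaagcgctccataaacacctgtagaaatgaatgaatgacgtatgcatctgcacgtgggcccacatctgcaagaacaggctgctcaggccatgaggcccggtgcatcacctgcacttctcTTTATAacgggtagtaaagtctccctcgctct
ITGAV: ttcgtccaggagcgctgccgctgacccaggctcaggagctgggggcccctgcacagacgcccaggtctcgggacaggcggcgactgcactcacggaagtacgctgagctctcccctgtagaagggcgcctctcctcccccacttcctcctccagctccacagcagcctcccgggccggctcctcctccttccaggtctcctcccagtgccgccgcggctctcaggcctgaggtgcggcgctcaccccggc
ITGB1: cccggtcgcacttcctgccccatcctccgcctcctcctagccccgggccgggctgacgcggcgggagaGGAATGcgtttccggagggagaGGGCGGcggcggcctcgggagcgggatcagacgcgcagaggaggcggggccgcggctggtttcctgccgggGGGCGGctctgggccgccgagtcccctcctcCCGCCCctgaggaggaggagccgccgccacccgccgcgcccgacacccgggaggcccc
ITGB8: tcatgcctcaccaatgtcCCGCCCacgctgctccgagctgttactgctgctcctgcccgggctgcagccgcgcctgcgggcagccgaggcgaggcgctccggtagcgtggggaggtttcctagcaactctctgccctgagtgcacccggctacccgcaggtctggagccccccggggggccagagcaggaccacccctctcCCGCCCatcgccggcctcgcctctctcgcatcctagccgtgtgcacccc
ITGB5: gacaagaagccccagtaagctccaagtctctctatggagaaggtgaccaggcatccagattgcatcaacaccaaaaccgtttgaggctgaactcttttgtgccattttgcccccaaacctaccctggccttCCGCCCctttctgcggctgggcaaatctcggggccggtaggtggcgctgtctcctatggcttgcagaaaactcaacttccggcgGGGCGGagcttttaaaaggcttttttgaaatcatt

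No motif searched was common to the 5 members of that kind with a matched promoter. ITGB4, which was placed in the same way, had none matched and was not searched. The GC box was found 4 times in ITGA2, 3 times in ITGB1, 2 times in ITGB8 and 2 times in ITGB5, and 0 times in ITGA6 and ITGAV. It is held by 42.6% of 35116 RefSeq promoter windows of the same length. The TATA box was found in ITGA6 (10.7% of windows) and the TEAD motif in ITGB1 (11.9%). TGANTCA, bound by AP-1 (6.57% of windows), and CTTTGA, within the TCF/LEF motif through which Wnt signals act (11.2%), were also searched on both strands and had 0 matches in these 6 windows. Matches of different motifs did not overlap in these windows, and a match is a description of letters, not a site. The windows were picked by the placing of the members in these same libraries, and no link between motifs and placing was tested. Of the matched promoters not printed, ITGA5 had 1 GC box and 1 TEAD motif, and ITGB6 had 0 of either. The GC content was 76.4% in ITGA2, 50.8% in ITGA6, 70.8% in ITGAV, 78.4% in ITGB1, 71.2% in ITGB8 and 52.8% in ITGB5. ITGA6, ITGAV and ITGB1 each have 2 starts listed and ITGB5 has 3, and which start HCT116 cells use is not known from these files.

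The order of levels was read next, since FPKM is per length and allows genes to be compared. ITGB1 was the highest member in every library and ITGB6 the lowest. In the EV controls the order by mean FPKM was ITGB1 (144 ± 2.01), ITGA3 (80.7 ± 1.19), ITGB4 (69.3 ± 0.718), ITGA6 (29.9 ± 1.46), ITGB5 (21.5 ± 1.10), ITGA5 (14.8 ± 0.716), ITGA2 (9.61 ± 0.373), ITGAV (9.43 ± 0.617), ITGB8 (0.695 ± 0.0801) and ITGB6 (0.0568 ± 0.0353; SD, n = 2). ITGA2 and ITGAV, neighbours in that order, differed by less than their spread. Transcripts of both subunits of the collagen, laminin and fibronectin receptors and of the ITGAV-ITGB5 receptor were thus present at over 8 FPKM in every library. In both KO libraries ITGB5 stood above ITGA6 (35.9 against 31.0 FPKM in replicate 1, 25.8 against 23.3 FPKM in replicate 2), and in both EV controls it stood below. In KO replicate 1 ITGB4 stood above ITGA3 (96.6 and 91.8 FPKM), and in KO replicate 2 below it (64.6 and 94.8 FPKM).

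**Figure D1:**
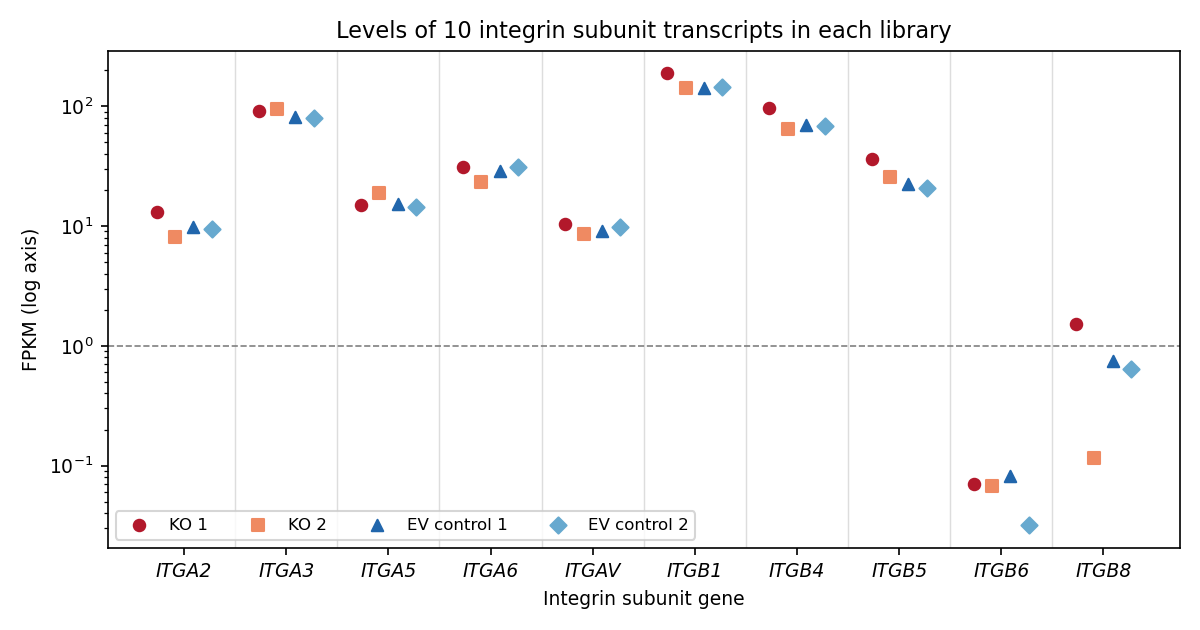
FPKM (log axis) of the 10 integrin subunit genes, with 1 point per library and the KO libraries left of the EV controls; the dashed line is 1 FPKM. ITGB1 is the highest in every library, ITGB6 lies under 0.1 FPKM throughout, and ITGB8 spans 0.115 to 1.51 FPKM between the KO libraries.

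Of the 10 members, 8 reached 1 FPKM in at least 2 libraries and were tested among 12701 genes. The test was limma-trend on log2(FPKM + 1), a scale that understates the change of low genes, with Benjamini-Hochberg adjustment and a threshold of 0.05. It called 0 members higher and 0 lower; 0.0551% of all tested genes were called higher and 0.0551% lower. The adjusted p-values of the members ranged from 0.280 for ITGB5 to 0.989 for ITGAV. The targeted gene C14orf159, lower in both KO libraries, did not pass either (log2 difference -1.42, SE 0.57, limma-trend, adjusted p = 0.314). At an unadjusted p under 0.05, ITGB5 and ITGA3 were on the higher side and 0 members on the lower, against 9.23% and 7.22% of all tested genes. In limma without the trend and in robust limma-trend 0 members passed as well. The median log2 difference of the 8 tested members was 0.18, beside 0.003 for all tested genes, and the values for the single KO libraries were 0.28 (replicate 1) and -0.06 (replicate 2).

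ITGB5 and ITGA3 were the 2 members that lay higher in both KO libraries than in either EV control, a placing seen in 26.5% of tested genes, and 0 members lay lower in both, as 25.6% of tested genes did. ITGB5, the beta partner of ITGAV in the vitronectin receptor (chromosome 3), had 35.9 and 25.8 FPKM in KO replicates 1 and 2, against 22.3 and 20.7 FPKM in EV control replicates 1 and 2. The groups did not overlap, but the KO replicates lay farther apart than the nearer of them lay from the controls. The difference was 0.49 on the log2(FPKM + 1) scale (SE 0.17; limma-trend, adjusted p = 0.280). In bulk RNA, more expressing cells and more transcript per cell cannot be told apart, here and for the other members. GENCODE release 29 lists an antisense gene for ITGB5 and for ITGA6, and the sources used here do not say whether counting used the strand, so reads of the antisense partner cannot be told apart for these 2 members.

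ITGA3, which forms an epithelial laminin receptor with ITGB1 (chromosome 17), had 91.8 and 94.8 FPKM in the KO libraries, against 81.5 and 79.8 FPKM in the EV controls. It was the member on which the KO replicates lay closest together among the 8 tested: 84.7% of tested genes had a wider gap between them. The difference was 0.21 (SE 0.076; limma-trend, adjusted p = 0.291). In percent of the EV control mean, the KO libraries stood at 114% and 118% for ITGA3 and at 167% and 120% for ITGB5.

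The KO replicates parted over most of the other members. For 6 of the 10 (ITGA2, ITGA6, ITGAV, ITGB1, ITGB4 and ITGB8) KO replicate 1 lay above both EV controls and KO replicate 2 below both, and 5 of these are among the 8 tested. This placing was found for 10% of tested genes, and the reverse, with KO replicate 2 above and KO replicate 1 below both controls, for 12.8% of tested genes and for 0 members. The median gap between the KO replicates was 0.40 on the log2 scale over the 8 tested members, beside 0.17 over all tested genes. Between the EV controls these medians were 0.08 and 0.07. The counts were read from the same values that showed the pattern, and no test was made of it.

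**Figure D2:**
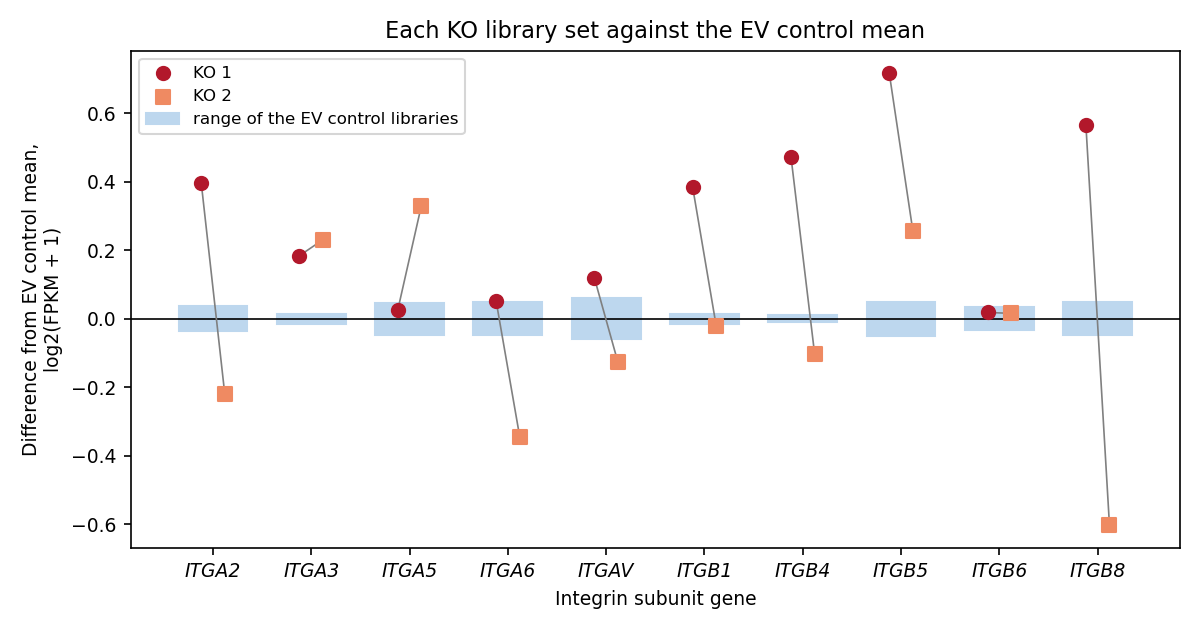
Difference of each KO library from the EV control mean on the log2(FPKM + 1) scale, for each integrin subunit; circles are KO replicate 1, squares KO replicate 2, and blue boxes span the 2 EV control libraries. Lines cross 0 for ITGA2, ITGA6, ITGAV, ITGB1, ITGB4 and ITGB8, whereas both points lie above the box for ITGA3 and ITGB5.

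ITGB4, the subunit of hemidesmosomes with the long tail that binds plectin (chromosome 17), had 96.6 and 64.6 FPKM in KO replicates 1 and 2, against 69.9 and 68.8 FPKM in the EV controls. KO replicate 1 was at 139% of the EV control mean and KO replicate 2 at 93.1%. The gap between the KO replicates was 0.57 on the log2 scale, and 6.78% of tested genes had a wider one. The group difference was 0.19 (SE 0.20; limma-trend, adjusted p = 0.663).

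ITGB1, the shared beta subunit (chromosome 10), had 188 and 141 FPKM in the KO libraries, against 142 and 145 FPKM in the EV controls. KO replicate 2 lay just under the lower control, so that the difference of 0.18 (SE 0.15; limma-trend, adjusted p = 0.580) came from KO replicate 1. ITGA2, the collagen-binding partner of ITGB1 (chromosome 5), had 12.97 and 8.10 FPKM in the KO libraries, against 9.87 and 9.35 FPKM in the EV controls. Only 5.70% of tested genes had a wider gap between the KO replicates than ITGA2, and its group difference was 0.09 (SE 0.22; limma-trend, adjusted p = 0.855).

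ITGA6, which pairs with ITGB1 or ITGB4 to bind laminin (chromosome 2), had 31.0 and 23.3 FPKM in the KO libraries, against 28.9 and 30.9 FPKM in the EV controls. Here KO replicate 1 was level with the higher control and KO replicate 2 stood at 78.0% of the EV control mean. ITGAV, the alpha subunit of the RGD receptors (chromosome 2), had 10.3 and 8.54 FPKM in the KO libraries, against 8.999 and 9.87 FPKM in the EV controls. The differences were -0.15 for ITGA6 (SE 0.15; limma-trend, adjusted p = 0.650) and -0.004 for ITGAV (SE 0.12; adjusted p = 0.989). ITGA5, the fibronectin-binding alpha subunit (chromosome 12), had 1 KO library within the range of the controls and 1 above it: it had 15.1 and 18.8 FPKM in the KO libraries, against 15.3 and 14.3 FPKM in the EV controls (log2 difference 0.18, SE 0.13; limma-trend, adjusted p = 0.523). It was higher in KO replicate 2 than in KO replicate 1, as ITGA3 was.

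The 2 members under the minimum level are subunits that activate TGF-beta with ITGAV. ITGB8 (chromosome 7) had 1.51 and 0.115 FPKM in the KO libraries, against 0.752 and 0.639 FPKM in the EV controls, and so stood at 217% and 16.6% of the EV control mean. With the longest GENCODE transcript of 8751 nt this corresponds to very roughly 165 and 12.97 fragments in the KO and 85.5 and 74.8 in the EV control libraries. ITGB8 thus showed the widest gap of the 10 members between the KO replicates (1.17 on the log2 scale, which understates it). ITGB6 (chromosome 2) had 0.0699 and 0.0679 FPKM in the KO libraries, against 0.0817 and 0.0318 FPKM in the EV controls, very roughly 2 to 5 fragments per library, and a difference was not detectable at this depth. Neither passed in limma-trend without a filter on low values (adjusted p = 0.994 for ITGB8 and 0.855 for ITGB6).

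**Figure D3:**
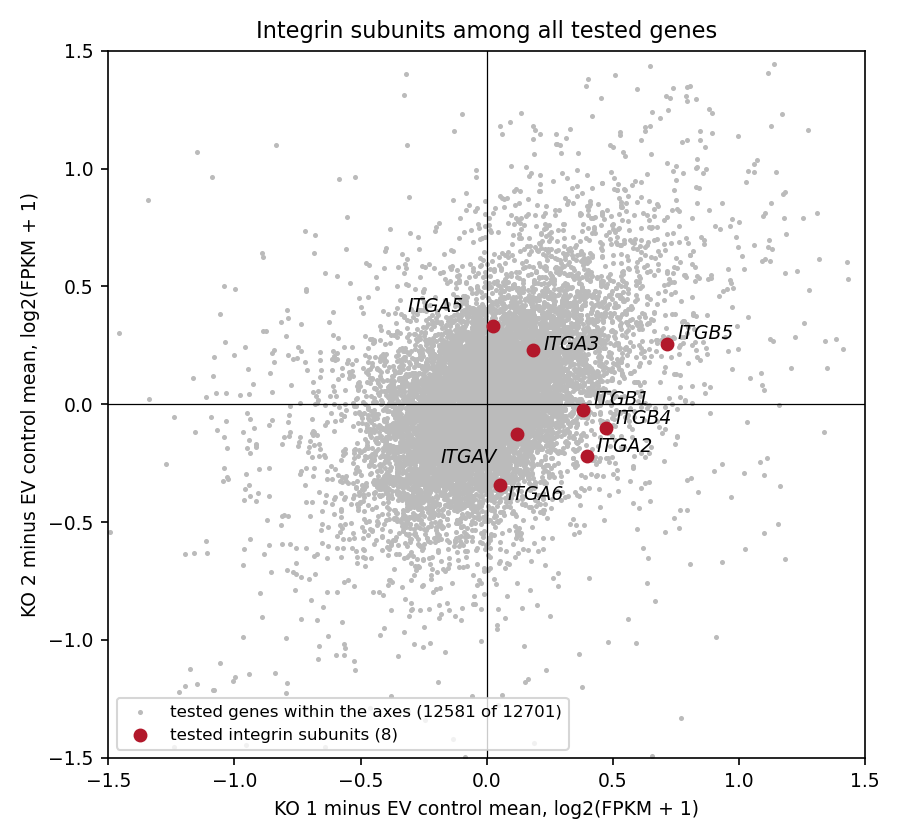
Difference from the EV control mean on the log2(FPKM + 1) scale in KO replicate 1 (x axis) and KO replicate 2 (y axis), for all tested genes within the axes (grey) and the 8 tested integrin subunits (red). ITGB4, ITGA2 and ITGB1 lie to the right and at or under 0 on the y axis, ITGB5 lies highest on the x axis at 0.72, and ITGA5 lies near 0 on the x axis and at 0.33 on the y axis.

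Each KO library was then set alone against the EV controls. At a 1.2-fold difference on the log2(FPKM + 1) scale, KO replicate 1 had ITGB5 (0.72), ITGB4 (0.47), ITGA2 (0.40) and ITGB1 (0.38) higher and 0 of the 8 tested members lower, beside 14.5% higher and 12.7% lower among all tested genes. KO replicate 2 had ITGA5 (0.33) higher and ITGA6 (-0.34) lower, beside 17.8% higher and 13.9% lower among all tested genes. Of the 8 tested members, 0 passed this fold in both libraries, and ITGB5 (0.26) stood just under it in KO replicate 2. ITGB8, which was not tested, lay past it in both, at 0.57 in KO replicate 1 and -0.60 in KO replicate 2. The fits with a single KO library assume that it varies like the EV controls. The KO replicates lay farther apart (robust SD 0.228) than the EV controls did (0.0888). The assumption is thus not met, and the p-values of these fits can be too small. KO replicate 1 alone, in limma-trend without KO replicate 2, gave adjusted p = 0.0101 for ITGB5, 0.0127 for ITGB4, 0.0181 for ITGB1 and 0.0397 for ITGA2, with 6.29% of all tested genes called higher and 6.94% lower. KO replicate 2 alone, in limma-trend without KO replicate 1, gave adjusted p = 0.0474 for ITGA3 and 0.0469 for ITGA5 on the higher side and 0.0369 for ITGA6 on the lower, with 10.9% of all tested genes called higher and 6.62% lower. The 2 comparisons share the EV control libraries. Neither KO library was measured again, so these values describe single libraries.

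The balance between partner subunits was examined as a ratio of FPKM within a library, which no factor applied to a whole library can change. The ratio of ITGA6 to ITGB4 was 0.321 and 0.361 in KO replicates 1 and 2, against 0.413 and 0.449 in the EV controls. It was thus lower in both KO libraries, with KO replicate 1 high in ITGB4 and KO replicate 2 low in ITGA6. The summed ITGB5, ITGB6 and ITGB8 to ITGAV gave 3.63 and 3.04 in the KO libraries, against 2.57 and 2.16 in the EV controls, nearly all of it ITGB5. The 5 alpha subunits summed to 0.858 and 1.09 times ITGB1 in the KO libraries and to 1.02 and 0.994 times ITGB1 in the EV controls, and here the KO libraries lay on either side of the controls. So they did for ITGA3 alone, at 0.489 and 0.671 times ITGB1 in the KO libraries and 0.573 and 0.550 times in the EV controls. Among single tested genes, 26.5% lay above both controls in both KO libraries and 25.6% below, and no such share was computed for ratios of other genes. These ratios are given as values without a test. With 2 libraries against 2, an exact two-sided permutation test cannot give a p below 0.333.

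The sum over the 5 alpha subunits was 161 and 154 FPKM in the KO libraries and 144 FPKM in each EV control. The sum over the 5 beta subunits was 322 and 232 FPKM in the KO libraries and 235 FPKM in each EV control. The extra level in KO replicate 1 was thus mostly ITGB1, ITGB4 and ITGB5. The EV controls differed by less than 1 FPKM in either sum.

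**Figure D4:**
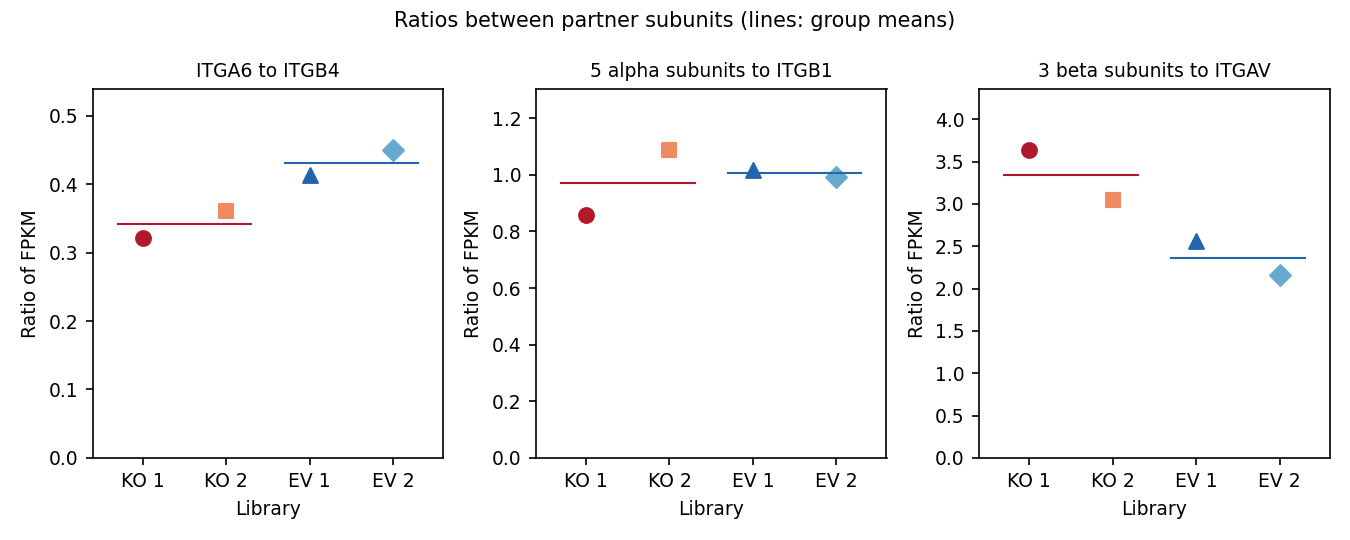
Ratio of FPKM between partner subunits in each library, with KO libraries left of EV controls, axes from 0 and lines at the group means (n = 2 each). The ratio of ITGA6 to ITGB4 is lower in both KO libraries (0.321 and 0.361) than in both EV controls (0.413 and 0.449), and the ratio of 3 beta subunits to ITGAV is higher in both.

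The remaining genes of the integrin pathway were read from lists of known function. Of 16 other integrin subunit genes 3 were tested, 0 passed, and 0 had an unadjusted p under 0.05 (limma-trend). ITGA7, a laminin-binding partner of ITGB1 best known from muscle, had 4.55 and 7.68 FPKM in KO and 3.84 and 3.84 FPKM in EV control cells (adjusted p = 0.341). ITGAE, which pairs with ITGB7 to bind E-cadherin, had 4.995 and 5.45 FPKM in KO and 4.43 and 4.33 FPKM in EV control cells. ITGA2B, the platelet fibrinogen receptor subunit, had 1.35 and 1.29 FPKM in KO and 0.965 and 0.918 FPKM in EV control cells. All 3 lay higher in both KO libraries than in both controls, as 26.5% of tested genes did. ITGB2, the beta subunit of leukocytes, was at 0.0261 FPKM or lower in every library, and ITGB3, the other main partner of ITGAV, at 0.0904 FPKM or lower.

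Among 42 ligand genes 21 were tested, and 0 passed (limma-trend; unadjusted p under 0.05 for 3 on the higher and 4 on the lower side), with a median log2 difference of 0.05. MFGE8, a secreted RGD protein bound by ITGAV integrins, had 30.2 and 34.8 FPKM in KO and 22.8 and 20.7 FPKM in EV control cells (adjusted p = 0.183). COL1A1, a chain of the collagen bound through ITGA2, had 6.43 and 7.15 FPKM in KO and 4.54 and 4.61 FPKM in EV control cells (adjusted p = 0.190), while COL1A2, the other chain, was listed at 0 in every library. NOV, a matricellular integrin ligand of the CCN family, had 2.86 and 2.51 FPKM in KO and 4.93 and 5.58 FPKM in EV control cells (adjusted p = 0.155). The groups did not overlap for these 3, which had the smallest p of the list; 26.5% of all tested genes lay above both controls in both KO libraries and 25.6% below. Placed like most integrin subunits, above both controls in KO replicate 1 and below both in KO replicate 2, were FN1 and CTGF, named after their values were seen. FN1, the fibronectin gene and below the minimum level, had 2.14 and 0.471 FPKM in KO and 0.913 and 0.753 FPKM in EV control cells. CTGF, another CCN family ligand and also below it, had 1.29 and 0.331 FPKM in KO and 0.867 and 0.5003 FPKM in EV control cells.

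Of 49 activator and adaptor genes, which link integrin tails to actin and to kinases, 48 were tested and 0 passed (limma-trend; unadjusted p under 0.05 for 5 on the higher and 2 on the lower side). Their median log2 difference was 0.01. FYN, a Src family kinase acting at adhesions, had 8.14 and 6.69 FPKM in KO and 4.95 and 4.50 FPKM in EV control cells (adjusted p = 0.205). VASP, which promotes actin filament growth at adhesions, had 49.8 and 47.9 FPKM in KO and 39.5 and 37.8 FPKM in EV control cells (adjusted p = 0.208). FERMT2, a kindlin that activates integrins with talin, had 10.3 and 11.2 FPKM in KO and 8.43 and 8.83 FPKM in EV control cells (adjusted p = 0.250). FERMT1, the other kindlin at a like level, named after its values were seen, had 9.71 and 9.04 FPKM in KO and 11.2 and 11.3 FPKM in EV control cells (adjusted p = 0.280) and so lay on the other side. TLN1, the talin gene, named after its values were seen, had 24.8 and 22.8 FPKM in KO and 28.3 and 28.8 FPKM in EV control cells (adjusted p = 0.263), with groups that did not overlap. Across this list, 19 of the 48 lay above both controls in both KO libraries and 11 below, beside 26.5% and 25.6% of all tested genes.

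Hemidesmosome partners gave 0 passing genes of 6 tested among 7 (limma-trend; unadjusted p under 0.05 for 0 on the higher and 1 on the lower side). PLEC, the plectin gene, whose product ties ITGB4 to keratin filaments, had 35.3 and 30.3 FPKM in KO and 42.3 and 43.4 FPKM in EV control cells (adjusted p = 0.223). LAMB3, the beta chain of the hemidesmosomal laminin, had 14.8 and 22.4 FPKM in KO and 13.7 and 13.03 FPKM in EV control cells. PLEC thus lay lower in both KO libraries, while ITGB4 did so in KO replicate 2 alone. Over the list, 1 of the 6 lay above both controls in both KO libraries and 1 below, beside 26.5% and 25.6% of all tested genes.

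Trafficking genes (19 of 20 tested) gave 0 passing genes (limma-trend; unadjusted p under 0.05 for 0 on the higher and 2 on the lower side). RAB21, a small GTPase that binds integrin alpha tails during endocytosis, had 12.8 and 13.3 FPKM in KO and 15.1 and 16.1 FPKM in EV control cells. VPS35, a retromer subunit, had 55.6 and 50.3 FPKM in KO and 61.6 and 63.4 FPKM in EV control cells, and NUMB, an endocytic adaptor, had 21.9 and 17.6 FPKM in KO and 16.1 and 16.3 FPKM in EV control cells. Their adjusted p-values were 0.280, 0.290 and 0.360. Over the list, 5 of the 19 lay above both controls in both KO libraries and 5 below, beside 26.5% and 25.6% of all tested genes.

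All 14 membrane partners were tested, and 0 passed (limma-trend; unadjusted p under 0.05 for 3 on the higher and 0 on the lower side). Of these 14, 9 lay above both EV controls in both KO libraries, where 26.5% of all tested genes did, and the median log2 difference was 0.16. The list was chosen with earlier results of these data known, so the count is a description and was not tested. PLAUR, the urokinase receptor, which associates with integrins, had 27.005 and 27.5 FPKM in KO and 18.7 and 17.8 FPKM in EV control cells (adjusted p = 0.135). CD47, the integrin-associated protein, had 11.6 and 11.7 FPKM in KO and 7.67 and 7.74 FPKM in EV control cells (adjusted p = 0.150). LGALS3, a galectin that crosslinks glycosylated integrins, had 154 and 159.5 FPKM in KO and 122 and 119 FPKM in EV control cells (adjusted p = 0.190). Over all 14 membrane partners the median gap between the KO replicates was 0.096 on the log2 scale, beside 0.40 over the 8 tested integrin subunits and 0.17 over all tested genes, and CAV1, with 235 and 330 FPKM in KO and 258 FPKM in each EV control, had a wide one.

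Of 9 genes of latent TGF-beta handling, the substrate of ITGAV integrins, 4 were tested and 0 passed, with 0 at an unadjusted p under 0.05 in either direction (limma-trend). LTBP3, a latent TGF-beta binding protein, had 43.4 and 40.3 FPKM in KO and 37.5 and 34.6 FPKM in EV control cells. LTBP1 had 1.61 and 1.75 FPKM in KO and 1.12 and 1.22 FPKM in EV control cells. TGFB1 had 14.6 and 24.1 FPKM in KO and 20.2 and 16.2 FPKM in EV control cells, so that the KO libraries lay on either side of the controls.

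**Figure D5:**
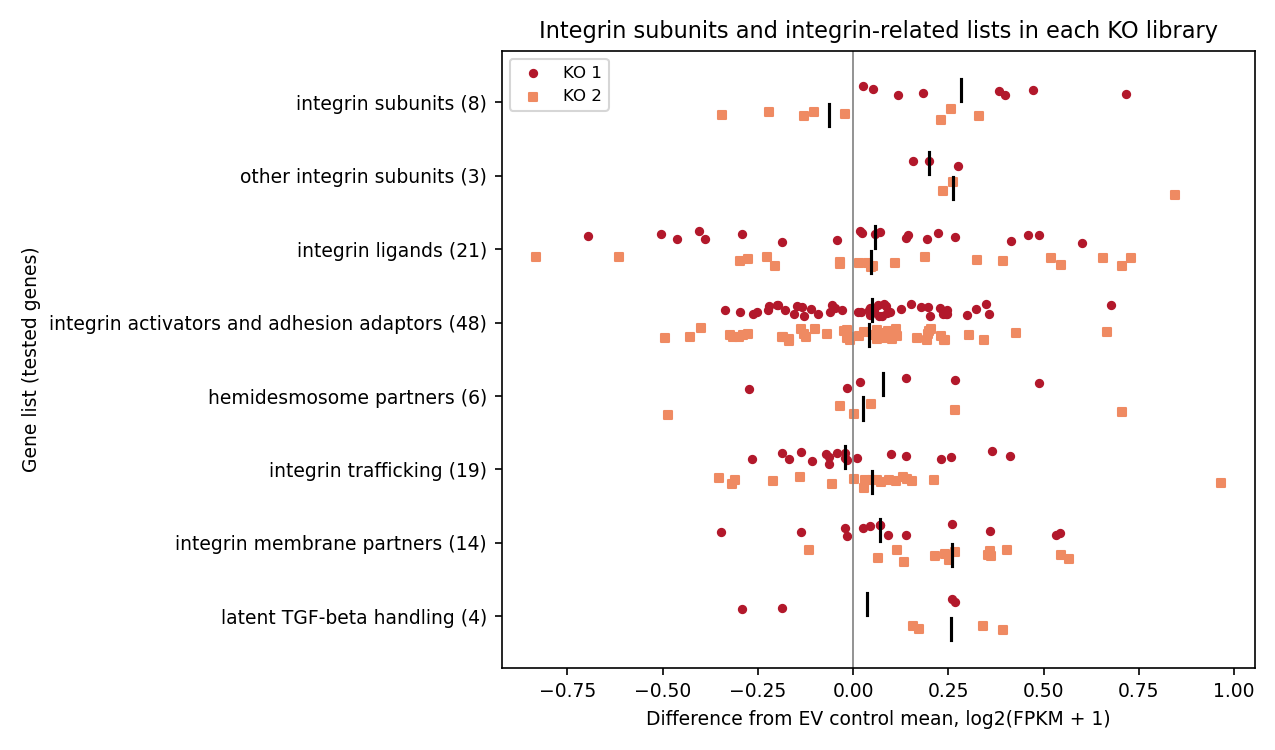
Difference from the EV control mean on the log2(FPKM + 1) scale (x axis) for tested genes of each list (rows, with the number tested), circles for KO replicate 1 and squares for KO replicate 2, black bars at the medians. The medians of the integrin subunits are 0.28 (KO replicate 1) and -0.06 (KO replicate 2), and those of the membrane partners 0.07 and 0.26.

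The 3 tested genes whose profile over the 4 libraries was most like that of ITGB5, the member with both the smallest p and the largest difference, were AMN1, ETV4 and PBXIP1. Likeness was the Euclidean distance between profiles of log2(FPKM + 1) minus the EV control mean, over 6661 candidate genes. The distances were 0.040 for AMN1, 0.050 for ETV4 and 0.059 for PBXIP1. ETV4, an ETS family transcription factor gene, had 44.6 and 30.8 FPKM in KO and 26.7 and 24.9 FPKM in EV control cells. AMN1 had 17.8 and 12.6 FPKM in KO and 10.5 and 9.90 FPKM in EV control cells, and PBXIP1 had 18.95 and 13.6 FPKM in KO and 11.8 and 11.2 FPKM in EV control cells. Their order across the libraries follows from how they were chosen and is a description alone. With 4 libraries many genes share a profile by number alone.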

How the data were processed

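Each library's deposited file holds FPKM by gene symbol. Per the submitters' processing notes, TopHat2 2.0.13, Bowtie2 2.2.3, SAMtools 0.1.19, Cuffnorm 2.2.1 and build hg19 were used. The sources used here do not state the annotation, the strand setting or the library scaling. Libraries were grouped by the labels. Genes with at least 1 FPKM in at least 2 libraries were fitted as log2(FPKM + 1) with limma 3.58.1 under R 4.3.3 (eBayes with trend), with the group as sole term, KO minus EV control, and p-values were adjusted by Benjamini-Hochberg over all 12701 tested genes. The fit was tested on data simulated with 4-fold changes and the same spread in both groups, and it recovered 100% of the changes in either direction. Smaller changes, and KO libraries that vary more than the controls, were not simulated.

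The integrin subunits and the lists were chosen with earlier results of these data known. Named genes were the members, C14orf159, the 3 tested genes of each pathway list with the smallest p, and the 3 genes closest in profile to the member with the smallest p; other names were picked after their values were seen, as was the 1.2-fold limit. A gene that the naming rule covers is not reported here. The lists share genes: several laminin genes and CD151 stand in 2 lists, as do the TGF-beta, COL1A1, COL1A2, COL3A1 and ITGAM genes. Depth was estimated from 2008 genes with a single GENCODE release 29 transcript of 1000 to 6000 nt, as the median of FPKM times length in kilobases between 0.06 and 0.1; the window bounds the result. Promoters came from RefSeq (GRCh38.p14) by symbol; other coordinates are not printed, because the files rest on hg19. Alternatives were pseudocounts of 0.1 and 0.5, median-of-ratios scaling, no filter, a 5 FPKM filter, limma without trend, quantile normalization, robust limma-trend, a replicate block, small RNA genes left out, and each library left out.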

Additional observations from a re-analysis of the deposited data

How the results depend on the processing

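In the 10 alternative settings that kept all 4 libraries (pseudocounts, filters, scalings, variance models, replicate block, small RNA genes left out), each tested integrin subunit kept its direction and 0 passed; the adjusted p of ITGB5 was 0.234 at its lowest and its log2 difference 0.48 to 0.50. Over all genes, higher and lower calls numbered 7 and 7, against 3 and 3 without a filter on low values and 0 and 0 without small RNA genes. Higher calls were 3 in limma without the trend and lower calls 4 with quantile normalization. Same-numbered libraries did not deviate together (correlation 0.00073), so the replicate block has no basis beyond the number; it gave 4 higher and 8 lower genes and 0 integrin subunits (ITGB5 adjusted p = 0.292). Leaving out 1 library at a time gave 6 to 1381 higher and 5 to 881 lower genes, and 0 to 4 integrin subunits higher and 0 to 1 lower. The integrin calls came without KO replicate 1 (2 higher, 1 lower) and without KO replicate 2 (4 higher), each resting on a lone KO library. The log2 difference then ranged from -0.22 to 0.40 for ITGA2, -0.34 to 0.052 for ITGA6, -0.13 to 0.12 for ITGAV, -0.022 to 0.38 for ITGB1, -0.10 to 0.47 for ITGB4 and -0.29 to 0.39 for TGFB1. ITGB6, at a few fragments per library, is limited by depth.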
